A study of Mus musculus with 6 samples.

Results

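The clock output and ROR factors examined here are 9 genes of transcriptional regulators, listed by name: the PAR bZIP factors Dbp, Tef and Hlf, their opponent Nfil3, the repressors Ciart, Bhlhe40 and Bhlhe41, and the nuclear receptors Rora and Rorb. They were followed in D4M-3A cells, an established mouse melanoma line, among 43043 genes listed in each sample, of which 14419 could be tested. RNA was sequenced from 3 control samples (Ctrl) and 3 samples with a CRISPR-Cas9 knockout of Nfkbiz (Nfkbiz KO). Nfkbiz encodes the nuclear NF-κB cofactor IκBζ. No treatment beyond the making of these cells is named, and the study names an empty construct for the control cells. Both groups were grown in RPMI-1640 medium with fetal calf serum. The methods describe lentiviral transduction with polybrene and selection with puromycin. Whether the cells were a clone or a pool, when they were harvested and whether their clocks had been synchronised is not given in the sources used here. By the study's account the 3 samples of a condition came from independent experiments.

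The circadian clock is a feedback loop in which CLOCK and BMAL1 (the product of Arntl) activate genes through E-box elements, and the PER and CRY proteins made from them shut this activation down. A coupled loop sets the level of Arntl: the ROR receptors activate and the REV-ERB receptors (Nr1d1, Nr1d2) repress through the same element. The loops drive output factors, among them the PAR bZIP activators and Nfil3, which compete for D-box elements in metabolic and detoxification genes and so pass the rhythm on. Bhlhe40 and Bhlhe41 (DEC1 and DEC2) repress at E-boxes, and Ciart (CHRONO) represses CLOCK and BMAL1 directly.

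Because E-boxes and ROR elements are the sites through which the loops act on such genes, the promoters of the 9 genes were read for them in RefSeq's promoter table (build GRCm38.p6, from 250 bases before to 50 bases after each start). It held 10 promoters for 8 of the genes and no entry for Bhlhe40. The E-box CACGTG, searched on both strands, was present in 4 of these 10 promoters, those of 3 genes, and in 7.15% of the 32851 promoters in the table. The windows around the E-boxes of Ciart, Tef and Bhlhe41 and around the ROR core motif of Nfil3 are shown here. The core motif alone is not the full ROR element, and an E-box variant found in a Rorb promoter is not shown. They are written 5′ to 3′ on the gene's strand, with positions from an exact match to GRCm39 and the motif in capitals.
Ciart, chr3:95789555-95789680, minus strand: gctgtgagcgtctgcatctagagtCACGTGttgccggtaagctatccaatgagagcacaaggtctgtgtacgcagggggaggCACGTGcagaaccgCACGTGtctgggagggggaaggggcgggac
Tef, first promoter, chr15:81686723-81686776, plus strand: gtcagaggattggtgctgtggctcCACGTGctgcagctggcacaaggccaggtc
Tef, second promoter, chr15:81695453-81695506, plus strand: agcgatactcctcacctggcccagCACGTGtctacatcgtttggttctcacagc
Bhlhe41, chr6:145811270-145811323, minus strand: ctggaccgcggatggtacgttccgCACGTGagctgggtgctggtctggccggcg
Nfil3, chr13:53135058-53135111, minus strand: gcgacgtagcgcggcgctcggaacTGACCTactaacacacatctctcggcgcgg

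Ciart held 3 E-boxes, which began 116, 58 and 44 bases before its start. The Tef E-boxes began 127 and 138 bases before the starts of its promoters, and that of Bhlhe41 153 bases before its start. The ROR core motif AGGTCA was present in 16.3% of all promoters and, among these genes, in that of Nfil3, where it lay on the opposite strand (printed as TGACCT) 12 bases before the start. The E-box variant CACGTT (4.68% of all promoters) occurred in one Rorb promoter, 234 bases before the start, and the STAT motif TTCNNNGAA (8.3%) in the Dbp promoter, 99 bases before it. None of the 10 promoters held the D-box forms TTATGTAA (0.938% of all) and TTACGTAA (0.119%), the full ROR element, which contains the core motif (0.773%), the κB motif (4.51%) or TATAAA (13.6%). All motifs were searched after the expression values were known, and a match describes these letters only.

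The targeted gene was read first. Nfkbiz (GRCm39 chromosome 16, 55631738 to 55659262, minus strand) had 69.1, 75.2 and 63.4 TPM in the Ctrl samples and 34.8, 34.7 and 35.1 TPM in the Nfkbiz KO samples, where TPM is a level scaled to the same total in each sample and corrected for transcript length and depth. Its mRNA was lower in each KO sample than in each Ctrl sample, with a log2 fold change of -0.98 ± 0.056 (SE; adjusted p = 6e-08, edgeR quasi-likelihood test with Benjamini-Hochberg adjustment). The study checked its knockout cells by immunoblot for IκBζ protein, which these mRNA levels do not measure. Gene reads per sample were 35309691 to 42763526 in Ctrl and 32219900 to 44927203 in Nfkbiz KO. Ctrl replicate 1 stood apart in ribosomal RNA, with 49321 TPM of Rn18s-rs5, whereas the most abundant gene of every other sample reached 14358 to 17673 TPM. Of 7 melanocyte lineage markers, Sox10 and Tyr had no read in any sample and 6 stayed under 1 TPM in every sample, and the summed level of all 7 was 1.11 to 1.74 TPM in Ctrl and 1.27 to 1.68 TPM in KO. Leukocyte markers summed to 1.78 to 2.46 TPM in Ctrl and 1.77 to 4.01 TPM in KO, with Cd3e without a read, and epithelial markers stayed between 0 and 0.237 TPM, with Epcam without a read. The sum of 3 endothelial markers was 0.530 to 0.806 TPM in Ctrl and 1.31 to 1.83 TPM in KO. Of these, only Cdh5, an endothelial cadherin, rose, from 0.548 to 1.54 TPM (adjusted p = 0.0023, edgeR quasi-likelihood test). Pecam1 averaged 0.0984 TPM in Ctrl and 0.0724 TPM in KO (adjusted p = 0.88, same test). Kdr had at most 9 reads in any sample and could not be tested. Their part in the results on the clock genes was not tested.

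Among the 9 genes, Dbp, Tef and Bhlhe41 were higher in Nfkbiz KO and Nfil3 and Bhlhe40 were lower, by 1.31-fold to 1.96-fold. Ciart, Rora and Rorb did not pass an adjusted p of 0.05, and Hlf was at the limit of detection. Thus 3 of the 8 genes tested rose, against 18.2% of all genes tested, and 2 fell, against 18.4%. In either direction 5 of 8 passed, against 36.6% of all genes tested. On the TPM scale, the split of all calls differed from that of the counts: with limma on log2(TPM + 1), 3004 genes passed as higher and 1327 as lower, where the count test had 2627 and 2647. The median log2 fold change was 0.40 over the 8 genes and -0.015 over all genes tested. The log2 levels of the groups did not overlap for 7 of the 8 genes, and for 48.4% of all genes tested. None of the 8 passed all thresholds of the study (more than 2-fold change, a group difference above 4, taken as TPM, and the adjusted p of 0.05), which 1.79% of all genes tested did. In bulk RNA, a change in the number of cells with a transcript and a change in its amount per cell cannot be told apart.

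**Figure D1:**
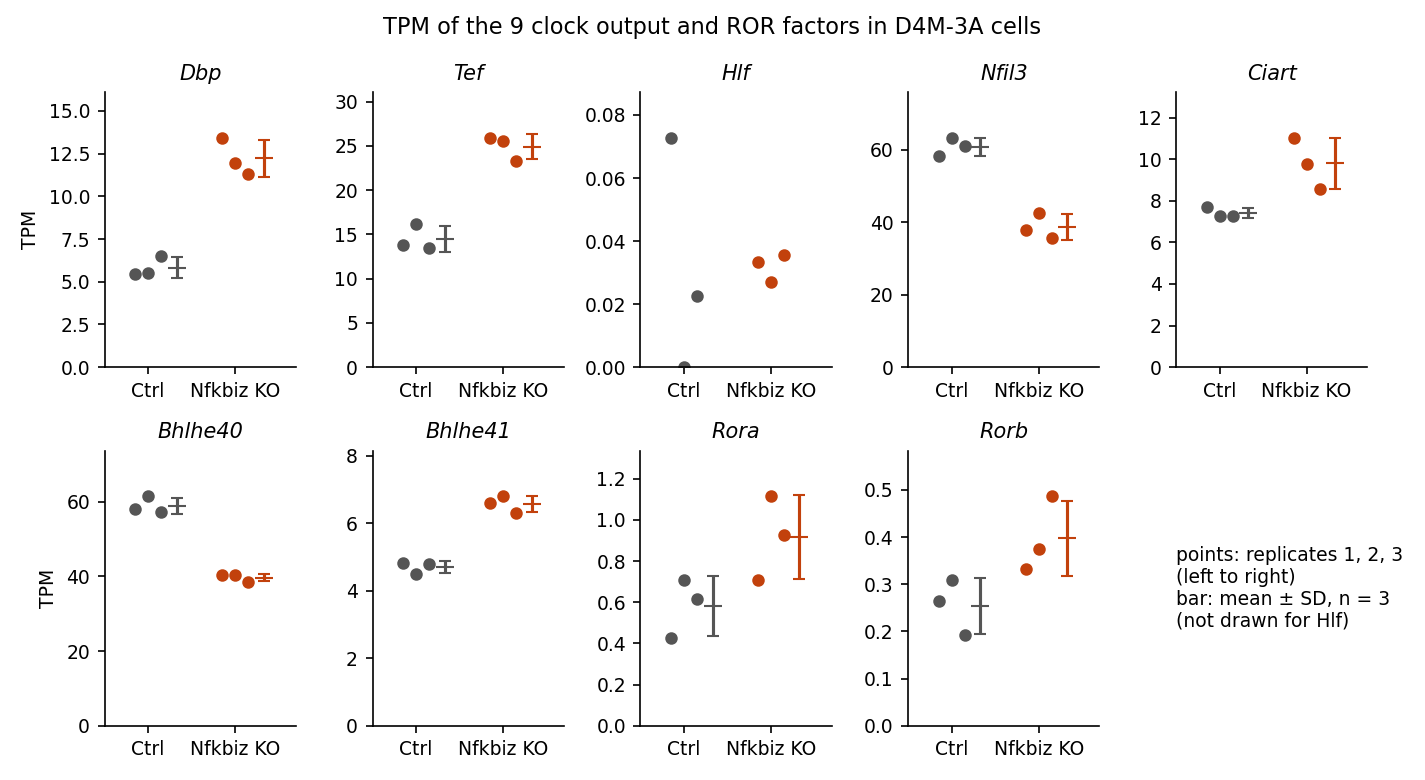
Level in TPM (y axis, linear, one scale per panel) of the 9 clock output and ROR factors in each Ctrl and Nfkbiz KO sample; points are the 3 replicates of a group and bars their mean ± SD, which is not drawn for Hlf. Dbp rose from 5.83 to 12.2 TPM and Tef from 14.5 to 24.9 TPM, Nfil3 fell from 60.9 to 38.7 TPM, and the Rora groups overlap.

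Dbp, a PAR bZIP activator and a classic direct target of CLOCK and BMAL1, lies on chromosome 7 (45354512 to 45359627, plus strand, as are all gene positions from GENCODE on GRCm39). It had 5.46, 5.51 and 6.52 TPM in Ctrl and 13.4, 12.0 and 11.3 TPM in Nfkbiz KO. Even the lowest KO sample was far above the highest Ctrl sample. The mean rose from 5.83 ± 0.602 to 12.2 ± 1.08 TPM (SD, n = 3 each). The log2 fold change in gene reads was 0.97 ± 0.12 (SE; adjusted p = 5.9e-05, edgeR quasi-likelihood test with Benjamini-Hochberg adjustment), the largest rise of the 8 genes, and 6.9% of all genes tested had a larger change in either direction. These values rest on 174 to 286 reads per Ctrl sample and 397 to 481 per KO sample. Of the Dbp reads, 86.9% mapped uniquely, the lowest share of the 9 genes. Dbp also shares 539 exon bases with Sphk2 on the opposite strand, and since counting ignored strand, reads of these bases cannot be assigned to one of the genes. Sphk2 itself had a log2 fold change of 0.09 (adjusted p = 0.36, edgeR quasi-likelihood test). The same limit holds for Tef, Nfil3, Ciart, Bhlhe40, Bhlhe41 and Rora, which share exon bases with other opposite-strand genes. The longest stretches were 1583 bases in Bhlhe41, with Gm43909 (0 reads in every sample), and 916 in Tef, with Gm62928 (not listed in the samples). The study placed Dbp in a gene list drawn from these samples, so its direction here is not independent evidence. In the main test here, Dbp missed the study's thresholds by its fold change alone, at 1.96-fold, with a TPM difference of 6.40.

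Tef (chromosome 15, 81686622 to 81711064, plus strand) encodes a PAR bZIP activator with the same D-box preference as Dbp, and both of its promoters carry the E-box shown above. It had 13.8, 16.2 and 13.4 TPM in Ctrl and 25.9, 25.6 and 23.3 TPM in Nfkbiz KO, so that the groups lay well apart. The mean rose from 14.5 ± 1.48 to 24.9 ± 1.44 TPM (SD, n = 3 each). Its log2 fold change in gene reads was 0.72 ± 0.062 (SE; adjusted p = 2.1e-06, edgeR quasi-likelihood test), from 1245 to 1558 reads in Ctrl and 2083 to 2717 in KO.

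Hlf (chromosome 11, 90227221 to 90281761, minus strand), the remaining PAR bZIP gene, was barely detected. The Ctrl samples had 6, 0 and 2 reads and the KO samples 2, 3 and 7 reads, which was too few for the test. A count of 0 allows up to 3 reads, and no difference between the groups was detectable at this depth. Tef was therefore the main PAR bZIP transcript in every sample. It made up 67.2% to 74.6% of the summed TPM of Dbp, Tef and Hlf in Ctrl and 65.8% to 68.1% in KO, and Hlf at most 0.376%. The sum itself was 19.3, 21.7 and 20.0 TPM in Ctrl and 39.4, 37.6 and 34.6 TPM in KO, with no overlap between the groups.

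Nfil3 (chromosome 13, 53121245 to 53137010, minus strand) encodes E4BP4, the bZIP repressor that occupies the same D-boxes. It had 58.2, 63.3 and 61.0 TPM in Ctrl and 37.8, 42.7 and 35.6 TPM in Nfkbiz KO. Each KO sample was below each Ctrl sample. The mean fell from 60.9 ± 2.55 to 38.7 ± 3.65 TPM (SD, n = 3 each), and the log2 fold change in gene reads was -0.76 ± 0.071 (SE; adjusted p = 4.2e-06, edgeR quasi-likelihood test). This was the largest fall of the 8 genes, and 10.1% of all genes tested had a larger change in either direction.

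Activators and repressor of the D-box thus moved in opposite directions at the mRNA level. The TPM of Dbp amounted to 0.0937, 0.0869 and 0.107 of that of Nfil3 in the Ctrl samples and to 0.355, 0.2801 and 0.318 in the KO samples. The mean ratio was 0.0958 ± 0.0101 in Ctrl and 0.318 ± 0.0376 in KO (SD, n = 3 each), and the groups lay far apart. For Tef, the ratio to Nfil3 was 0.237 ± 0.0175 in Ctrl and 0.646 ± 0.044 in KO, again without overlap. Nfil3 was the most abundant of the D-box factors in all 6 samples. The ratio of Tef to Dbp was 2.51 ± 0.438 in Ctrl and 2.04 ± 0.105 in KO, and there the groups overlapped. These ratios were formed after the changes of the single genes were known and were not tested.

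**Figure D2:**
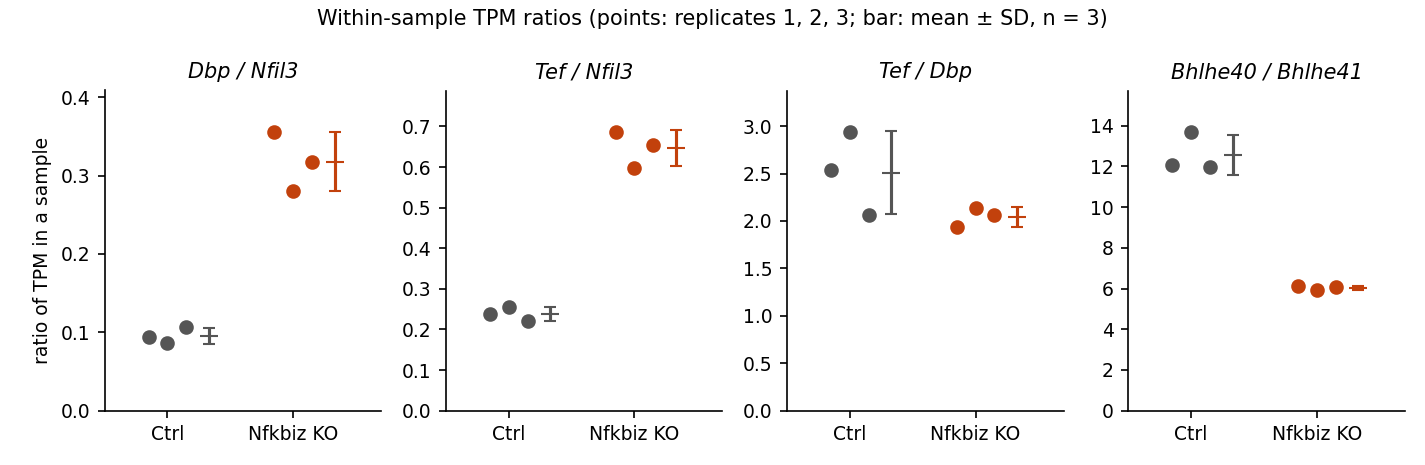
Ratios of TPM levels within each sample (y axis, linear from 0, one scale per panel) in Ctrl and Nfkbiz KO; points are the 3 replicates of each group and bars their mean ± SD. Dbp to Nfil3 averages 0.0958 in Ctrl and 0.318 in KO, and Bhlhe40 to Bhlhe41 12.6 and 6.04, while the Tef to Dbp ratios of the groups overlap.

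The repressors that act at the E-box did not move as a group. Bhlhe40 (chromosome 6, 108636626 to 108644502, plus strand), which encodes DEC1, had 58.0, 61.4 and 57.3 TPM in Ctrl and 40.3, 40.3 and 38.5 TPM in Nfkbiz KO, so that every KO sample was lower. The mean fell from 58.9 ± 2.22 to 39.7 ± 1.004 TPM (SD, n = 3 each), with a log2 fold change in gene reads of -0.67 ± 0.053 (SE; adjusted p = 9.2e-07, edgeR quasi-likelihood test). Its paralogue Bhlhe41 (chromosome 6, 145803969 to 145811430, minus strand), which encodes DEC2, had 4.82, 4.49 and 4.79 TPM in Ctrl and 6.59, 6.80 and 6.32 TPM in KO, and here every KO sample was higher. The mean rose from 4.70 ± 0.179 to 6.57 ± 0.242 TPM (SD, n = 3 each), and the log2 fold change was 0.39 ± 0.090 (SE; adjusted p = 0.0047, edgeR quasi-likelihood test). Since 25.3% of all genes tested changed more than this in either direction, the rise of Bhlhe41 was small in size. Bhlhe40 remained the more abundant of the paralogues throughout: its TPM was 12.1, 13.7 and 12.0 times that of Bhlhe41 in the Ctrl samples and 6.11, 5.92 and 6.10 times in the KO samples. This description of the ratio was likewise formed after the single values were seen.

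Ciart (chromosome 3, 95785815 to 95789991, minus strand), whose product CHRONO binds BMAL1, had 7.70, 7.29 and 7.26 TPM in Ctrl and 11.02, 9.79 and 8.58 TPM in Nfkbiz KO. The KO values were all above the Ctrl values but spread more widely, with means of 7.42 ± 0.242 and 9.80 ± 1.22 TPM (SD, n = 3 each). In gene reads the log2 fold change was 0.30 ± 0.12 (SE), and its adjusted p of 0.064 in the edgeR quasi-likelihood test missed the threshold. An exact two-sided permutation test on log2 CPM (reads scaled to library size) gave p = 0.1, the smallest that 3 samples against 3 allow. Dbp, Tef, Nfil3, Bhlhe40, Bhlhe41 and Rorb had the same p of 0.1 in this permutation test. On the scale of log2(TPM + 1), limma gave 0.35 with an adjusted p of 0.0416. The median log2 fold change of all genes tested was 0.0625 in that setting and -0.0154 in the count test. Over all alternatives the adjusted p of Ciart ranged from 0.0416 to 0.221. Of the 10 promoters, that of Ciart held the most E-boxes.

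The ROR receptors were expressed at low levels. Rora (chromosome 9, 68561068 to 69295528, plus strand) had 0.424, 0.708 and 0.614 TPM in Ctrl and 0.706, 1.11 and 0.927 TPM in Nfkbiz KO, and the lowest KO sample lay within the Ctrl range. The means were 0.582 ± 0.145 and 0.916 ± 0.204 TPM (SD, n = 3 each). The log2 fold change in gene reads was 0.41 ± 0.16 (SE; adjusted p = 0.071, edgeR quasi-likelihood test), from 107 to 144 reads in Ctrl and 114 to 215 in KO. The gene spans 734.5 kb, of which exons cover 1.97%, and the counted gene reads include reads outside exons, whereas TPM does not. Without Ctrl replicate 2 the adjusted p of Rora was 0.0411 and without Nfkbiz KO replicate 1 it was 0.0267, and it ranged from 0.0267 to 0.235 over all alternatives.

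Rorb (chromosome 19, 18907969 to 19088585, minus strand) had 0.263, 0.309 and 0.191 TPM in Ctrl and 0.331, 0.374 and 0.486 TPM in KO, from 32 to 39 and 35 to 80 reads. The groups did not overlap, but lay close together. Its log2 fold change in gene reads was 0.62 ± 0.27 (SE; adjusted p = 0.092, edgeR quasi-likelihood test), and it was 0.38 without Nfkbiz KO replicate 3. The size of any change in Rorb is therefore uncertain at this depth. The ratio of Rora to Rorb was 2.37 ± 0.802 in Ctrl and 2.34 ± 0.569 in KO (SD, n = 3 each), with overlapping groups.

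Ordered by TPM, Nfil3 and Bhlhe40 came first in both groups and their ranges overlapped within each group. Tef followed, clearly apart from its neighbours. In Ctrl, Ciart, Dbp and Bhlhe41 came next in that order, with ranges that did not overlap. In Nfkbiz KO, Dbp stood above Ciart, the ranges being 11.3 to 13.4 TPM and 8.58 to 11.02 TPM, and Bhlhe41 again came below both. Rora, Rorb and Hlf closed the order in both groups.

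Among the 10 other genes of the core loops that could be tested, 5 rose, 1 fell and 4 did not pass the test, with a median log2 fold change of 0.41. Of all genes tested, 18.2% passed as higher and 18.4% as lower. The rise was largest for the REV-ERB genes. Nr1d1 had 13.4, 14.6 and 12.1 TPM in Ctrl and 36.7, 35.9 and 37.3 TPM in Nfkbiz KO (log2 fold change in gene reads 1.35 ± 0.067, SE; adjusted p = 1.6e-08, edgeR quasi-likelihood test). Nr1d2 averaged 21.1 ± 1.82 TPM in Ctrl and 52.2 ± 0.172 TPM in KO (SD, n = 3 each), and its log2 fold change was 1.21. Both are also on the study's list drawn from these samples. The period genes Per3 (log2 fold change 1.09) and Per2 (0.89) and the activator gene Clock (0.74) rose as well. Arntl fell by 0.55 on the log2 scale, from 22.8 ± 2.42 to 16.5 ± 0.467 TPM (SD, n = 3 each), and is named after its value was seen because it was the only one to fall. Npas2, a relative of Clock, could not be tested, with at most 5 reads in any sample.

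The receptors that act on the same element can be set side by side. Nr1d1 had 23.99 ± 6.61 times the TPM of Rora in Ctrl and 41.5 ± 9.94 times in KO (SD, n = 3 each). The groups did not overlap but nearly touched, at 31.6 in Ctrl replicate 1 and 32.2 in Nfkbiz KO replicate 2. For Nr1d2 the ratio was 37.7 ± 9.37 in Ctrl and 59.1 ± 13.9 in KO, and the groups overlapped. In all 6 samples the REV-ERB transcripts thus far exceeded that of Rora. These ratios inherit the wide spread of the low Rora values.

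Of 8 genes whose products modify clock proteins, 1 passed as higher and 2 as lower in the count test, a share close to the 36.6% of all genes tested, with a median log2 fold change of 0.057. This split depended on the scale: limma on log2(TPM + 1) or log2(TPM + 0.1) gave 4 higher and 0 lower, and upper-quartile factors 0 higher and 2 lower. In the count test, only Fbxl21 of these, which encodes a ubiquitin ligase subunit that acts on cryptochromes, changed by at least 1.5-fold. It went from 2.54 ± 0.673 TPM in Ctrl to 1.62 ± 0.157 TPM in KO (SD, n = 3 each; log2 fold change -0.80 ± 0.17, SE; adjusted p = 0.0036, edgeR quasi-likelihood test). On the TPM scale this call was lost, with adjusted p of 0.0743 and 0.0792 in limma at pseudocounts of 1 and 0.1, and its adjusted p ranged from 1.99e-05 to 0.0792 over 15 alternatives. Without Nfkbiz KO replicate 2, and likewise without Nfkbiz KO replicate 3, only 1 of the 8 passed.

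Of 5 known targets of the PAR bZIP factors, 4 could be tested. In the count test 1 passed as higher and 1 as lower, with a median log2 fold change of -0.021, whereas limma at either pseudocount on the TPM scale gave 2 higher and 0 lower. Abcb1a, a drug efflux transporter, had 3.12, 3.31 and 2.42 TPM in Ctrl and 2.52, 2.13 and 1.81 TPM in Nfkbiz KO, ranges that overlapped on this scale. Its log2 fold change in gene reads was -0.61 ± 0.16 (SE; adjusted p = 0.012, edgeR quasi-likelihood test). The call was lost in limma on the TPM scale (adjusted p of 0.109 and 0.128 at pseudocounts of 1 and 0.1) and without Nfkbiz KO replicate 3 (0.0609), and its adjusted p ranged from 0.000764 to 0.128 over 15 alternatives. Pdxk, a vitamin B6 kinase named after its value was seen, was the gene that rose, by 0.41 on the log2 scale, and it passed in all 15 alternatives. Nr1i3, the nuclear receptor CAR, had 2 to 7 reads per sample and could not be tested. Of 5 other clock-controlled genes, 1 passed as higher and 1 as lower in the count test, with a median of 0.079, and 2 as higher and 0 as lower in limma at either pseudocount on the TPM scale. For both lists, the share of all genes tested that passed the count test in either direction was 36.6%.

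**Figure D3:**
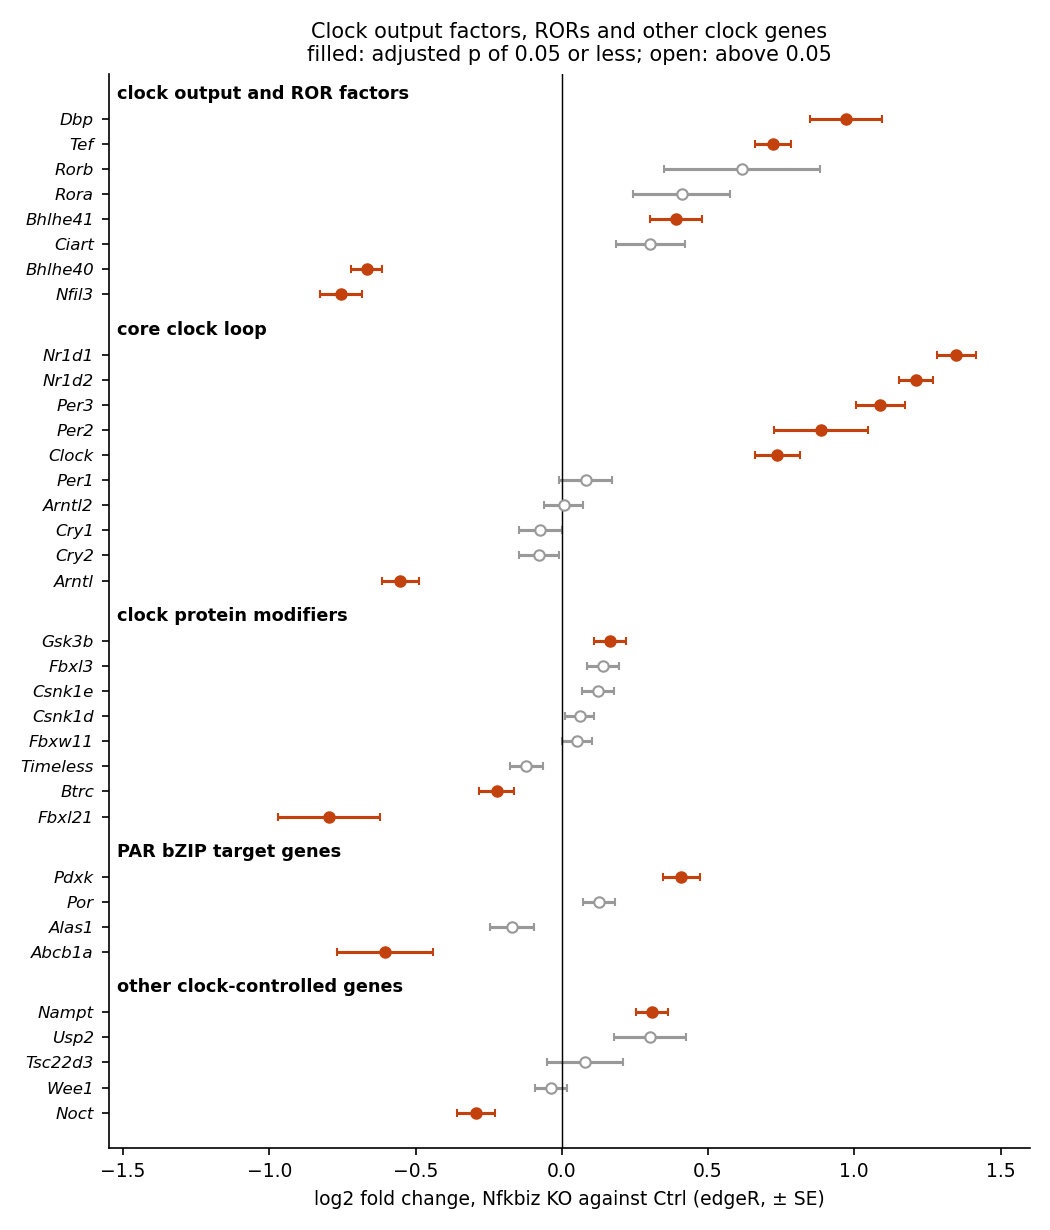
Log2 fold change in gene reads, Nfkbiz KO against Ctrl (x axis), of the clock output and ROR factors and of the other clock genes tested (one row each, grouped by list); points are edgeR estimates, bars their SE, and filled points have an adjusted p of 0.05 or less. Nr1d1 (1.35), Nr1d2 (1.21), Per3 (1.09) and Dbp (0.97) lie farthest to the right, and Fbxl21 (-0.80) and Nfil3 (-0.76) farthest to the left.

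Set against all genes tested, the changes of these factors were moderate in size. Larger changes in either direction were seen in 6.9% of genes tested for Dbp, 10.1% for Nfil3, 10.9% for Tef and 12.2% for Bhlhe40, and in 34% for Ciart. The median size of a log2 change over all genes tested was 0.195.

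**Figure D4:**
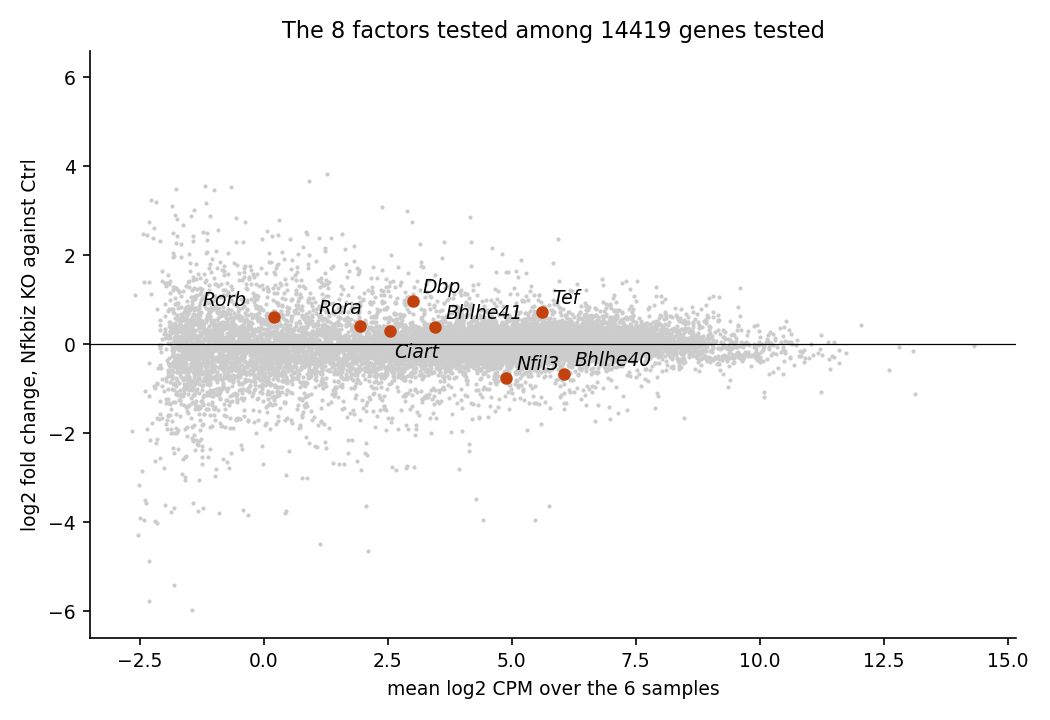
Log2 fold change in gene reads (y axis) against mean log2 CPM over the 6 samples (x axis) for the 14419 genes tested (grey), with the 8 factors tested in red. Dbp and Tef lie above and Nfil3 and Bhlhe40 below the band that most genes of like abundance form, whereas Ciart lies within it.

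The genes whose pattern over the 6 samples was nearest to that of Dbp, by the root mean square distance between centred log2 CPM, were Tm4sf4 at 0.0685, Boll at 0.0699 and Gm14002 at 0.0746. Their log2 fold changes were 1.02, 1.09 and 0.94. Boll is listed at 0 TPM in both group means, a value that counts exon reads only. For Nfil3 the nearest genes were Kctd5 at 0.0376, Arl4c at 0.0452 and Garem2 at 0.0532, with log2 fold changes of -0.80, -0.74 and -0.74. The likeness is a description over 6 samples in 2 groups.

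The calls among the 9 factors were little affected by how the counts were handled. Dbp ranged from 0.89 to 1.12 on the log2 scale over 15 alternatives, Tef from 0.69 to 0.79, Bhlhe41 from 0.34 to 0.47, Nfil3 from -0.83 to -0.64 and Bhlhe40 from -0.70 to -0.56. These 5 genes passed the threshold in all 15, those without Ctrl replicate 1 included.

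**Figure D5:**
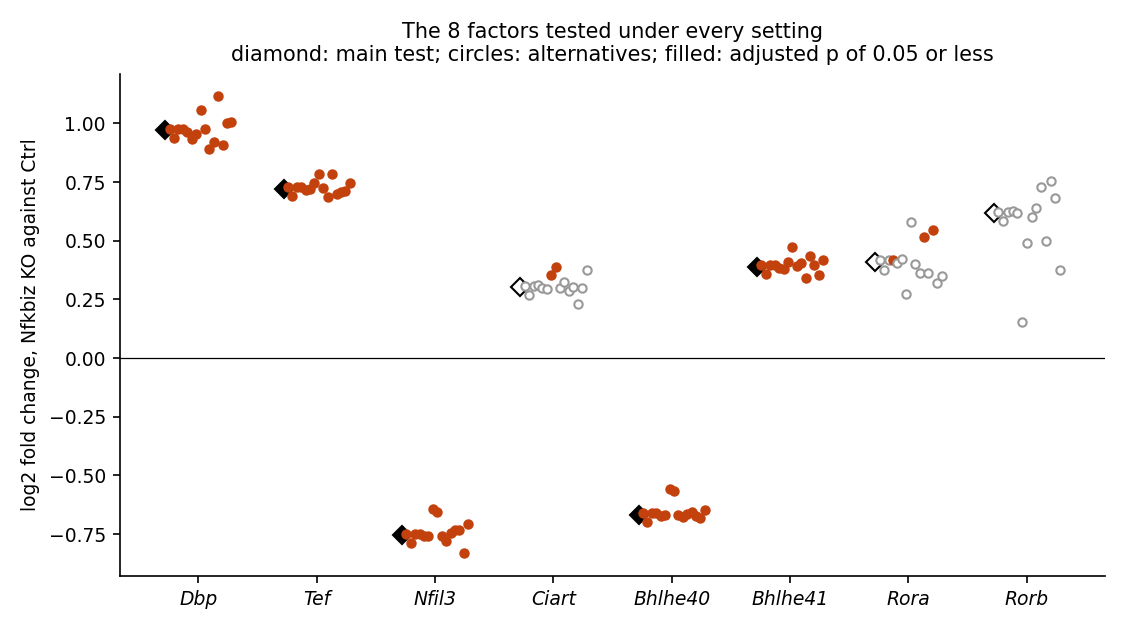
Log2 fold change, Nfkbiz KO against Ctrl (y axis), of the 8 factors tested (x axis) as reported (diamonds) and under each alternative (circles), filled where the adjusted p was 0.05 or less. No factor crosses 0. Rorb spreads most, from 0.15 with limma on log2(TPM + 1), where the pseudocount exceeds its level, to 0.76. In the settings on gene reads it spans 0.38 to 0.76. Bhlhe40 stays between -0.70 and -0.56.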

How the data were processed

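RNA of 3 Ctrl and 3 Nfkbiz KO samples of D4M-3A cells was sequenced in paired reads of total RNA. Reads were mapped in CLC Genomics Workbench by the authors, who deposited 1 table of genes per sample with raw counts (total and uniquely mapped gene reads) and with TPM and RPKM values derived from exon reads. Reads of both strands were counted, and decimal commas were converted. The study's methods name GRCm39, while the labels name GRCm38. Positions are from GENCODE M39 on GRCm39, matched by symbol.

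Total gene reads were tested with edgeR 4.0.16 in R 4.3.3 (TMM factors, filterByExpr at a count of 10 and a total of 15, quasi-likelihood test, Benjamini-Hochberg adjustment over 14419 genes). SE was taken as the absolute log2 fold change over the square root of F. Overlap of groups and exact permutation tests used log2 CPM. Samples had 32219900 to 44927203 gene reads, and a count of 3 (0.0668 to 0.0931 CPM) was taken as the floor, which covers counting error only. The procedure was tested on simulated data. No sample was a duplicate of another, but the KO samples lay closer to each other than the Ctrl samples. Chi-square per degree of freedom of gene reads was 3.41 to 5.89 between KO pairs and 25.8 to 65.9 between Ctrl pairs. P-values measure only the spread between these samples, which may be technical. Alternatives were DESeq2 1.42.0, limma 3.58.1 on log2 TPM with a pseudocount of 1 or 0.1, other factors and filters (none, or a minimum count of 50), unique reads, a replicate block and leaving out each sample.

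Named were the 9 factors, Nfkbiz, listed clock genes that passed with at least a 1.5-fold change or could not be tested (1 of these is not reported here), and the 3 genes nearest to Dbp and to Nfil3. The factors and lists were chosen with earlier results of these data known.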

Additional observations from a re-analysis of the deposited data

How the results depend on the processing

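Among the alternative values of the 8 factors' log2 fold changes, 114 kept their direction and their side of the threshold, 5 kept their direction and newly passed, and 0 reversed. Those 5 were Ciart with limma on log2(TPM + 1) and log2(TPM + 0.1) and Rora without a filter, without Ctrl replicate 2 and without Nfkbiz KO replicate 1. Rorb could not be tested under the stricter filter. With limma on log2(TPM + 0.1), 1 factor (Dbp, at 1.06) passed the study's thresholds, against 0 as reported. In that setting the median of all genes tested was 0.0803, against -0.0154 in the main test. On leaving out a sample, the count of factors past these thresholds ranged from 0 to 1. It was 1 without Ctrl replicate 3 and without Nfkbiz KO replicate 3. Genes that modify clock proteins passed in 1 to 4 cases on leaving out a sample, against 3 as reported. On the TPM scale, limma at either pseudocount turned their 1 higher and 2 lower into 4 higher and 0 lower, and the 2 higher and 2 lower of the PAR bZIP targets and other clock-controlled genes together into 4 higher and 0 lower. The core loop genes gave 5 higher and 1 lower throughout. The cause was not tested. No pairing by replicate number was seen: the deviations of same-numbered samples correlated at 0.0367, -0.0233 and 0.0256. Whether same-numbered samples were handled together was not tested. With the replicate block, 5 factors passed, as without it, and 2560 genes were higher and 2527 lower over all genes. The median of all genes moved between -0.0478 and 0.0803 on the log2 scale under other scalings, all by less than 0.1. Depth limits Hlf and Npas2, which could not be tested, and Rorb, whose estimate rests on at most 80 reads per sample.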
